A study of Mus musculus with 12 samples.

Results

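Cardiac myosin is the motor of the thick filament of heart muscle, and the mRNAs of its chains were read across the hearts of 3 groups of mice. The set was chosen by gene name: the heavy chains Myh6, Myh7 and Myh7b, the light chains Myl2, Myl3 and Myl4, the light chain kinase Mylk3, the myosin binding protein gene Mybphl, and 2 more genes that were not analysed here. Of the 10 genes, 8 had a transcript in at least 1 file, and 7 had transcripts in all 12 files and were tested, among 11500 genes tested in all. The 7 genes held 30 transcripts listed in all 12 files, among 18635 transcripts tested.

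The libraries came from hearts of wild-type C57BL/6 mice collected at day 3, with 4 mice in each group. LPS+XJDHT mice received lipopolysaccharide at 10 mg/kg together with the decoction XJDHT at 50 mg/kg per day, mice of the LPS group had that dose of lipopolysaccharide plus saline, and for Control mice both treatments were saline. Lipopolysaccharide is an outer membrane component of Gram-negative bacteria that triggers systemic inflammation, and XJDHT is Xijiao Dihuang decoction, a Chinese herbal formula given here by its name alone. Total RNA was depleted of ribosomal RNA before sequencing, and each value is an FPKM, the fragments of a transcript scaled by its length and by the size of the library.

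A thick filament is built of myosin heavy chains, each with a motor head that hydrolyses ATP and pulls on actin, and each head carries an essential and a regulatory light chain that stiffen its lever arm. Adult mouse ventricle uses mainly the fast alpha heavy chain from Myh6, while the slow beta chain from Myh7 prevails before birth and returns in many forms of cardiac stress in rodents. Ventricles use Myl2 as regulatory and Myl3 as essential light chain, atria use other light chains, and Mylk3 encodes the cardiac kinase that phosphorylates the regulatory chain.

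The libraries held 73.8 M to 77.8 M fragments (M, mega), as recovered from the values, and no pair of libraries was identical. Of the 7 ventricular markers all were listed, led by Myl2 and Myl3, and 3 of the 14 skeletal muscle markers were. A marker that is not listed has no value here, so its level is unknown. Among the 7, Myl2 and Myl3 fell and Lbh rose in LPS hearts against Control hearts. Of all genes tested 12.1% fell and 26.6% rose. The 5 outside the myosin set summed to 474 to 620 FPKM in LPS+XJDHT, 290 to 721 in LPS and 460 to 532 in Control. The 3 skeletal muscle markers summed to 23.2 to 36.1 FPKM in LPS+XJDHT, 19.1 to 31.3 in LPS and 19.8 to 28.5 in Control. The sum of 4 Y-linked genes was 0.205 FPKM in LPS+XJDHT replicate 2 and 20.4 to 61.9 FPKM in the other 11 libraries; leaving that library out changed no call on the 7 genes. Of the 7 fibroblast markers, 4 rose in LPS hearts against Control hearts, where 26.6% of all genes tested rose, and their sum was 683 to 1070.1 FPKM in LPS+XJDHT, 763 to 1005 FPKM in LPS and 405 to 501 FPKM in Control. Of the 10 leukocyte markers 8 were listed and 7 tested, and 4 rose in LPS hearts, where 26.6% of all genes did. In LPS+XJDHT hearts against Control hearts 4 rose and Lyz2 fell, where 28.5% of all genes tested rose and 10.7% fell. Sums of the 8 were 143 to 251 FPKM in LPS+XJDHT, 139.8 to 293 in LPS and 123 to 199.9 in Control. The part of fibroblasts and leukocytes in the myosin results was not tested. In RNA of bulk heart, fewer muscle cells and less myosin mRNA per muscle cell cannot be told apart.

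Myh6 and Myh7 lie next to each other on the minus strand of chromosome 14, and their promoter sequences are shown because Myh6 fell in LPS hearts while its neighbour Myh7 did not pass the test. A pass beside a non-pass is not a difference between the genes, and their ratio, tested below, did not pass after adjustment. Both windows run from 250 bases before to 50 bases after a RefSeq start on GRCm38.p6, Myh6 at chr14:54966558-54966857 and Myh7 at chr14:54994577-54994876. Capitals mark matches to CATTCC, the core of the M-CAT element bound by TEAD factors, and to TATAAA, the TATA box, each searched on both strands, where GGAATG is CATTCC on the other strand.
Myh6: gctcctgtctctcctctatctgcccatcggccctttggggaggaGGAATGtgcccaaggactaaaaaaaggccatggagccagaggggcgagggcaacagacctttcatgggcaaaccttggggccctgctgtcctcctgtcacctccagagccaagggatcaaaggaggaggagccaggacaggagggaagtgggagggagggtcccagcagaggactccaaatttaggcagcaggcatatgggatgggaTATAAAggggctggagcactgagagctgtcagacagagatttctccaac
Myh7: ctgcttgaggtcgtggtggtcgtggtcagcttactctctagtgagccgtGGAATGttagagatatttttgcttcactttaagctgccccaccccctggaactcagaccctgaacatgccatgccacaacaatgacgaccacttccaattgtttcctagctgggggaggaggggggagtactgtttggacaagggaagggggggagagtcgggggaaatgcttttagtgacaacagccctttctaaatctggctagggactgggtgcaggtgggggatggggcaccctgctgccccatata
The CATTCC match lies at -206 to -201 from the start in Myh6 and at -201 to -196 in Myh7, and 14.7% of the 32851 mouse promoters in the RefSeq table hold one. The TATAAA of Myh6 falls at +2 to +7 of the RefSeq start, and 13.6% of all promoters hold one. Another RefSeq start of Myh7, whose window at chr14:54994500-54994799 is not printed, has 0 CATTCC and 0 TATAAA matches. The match in Myh7 thus depends on the start chosen. A match is a description of the letters and not of binding.

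Since the heavy chains are near copies of each other, their separation rests on bases in which they differ. The coding sequences of Myh6-201 (5814 bases) and Myh7-201 (5805 bases) were identical at 91.7% of aligned positions in the GENCODE annotation, and the longest identical run was 245 bases. Of all stretches of 75 bases 16.4% were identical between the 2 genes, and of those of 150 bases 5.82%; the read length is not stated here. The 60-base window with the most differences is given, coding positions 3226 to 3285 of Myh6-201 and 3220 to 3279 of Myh7-201, with the 27 differing bases in capitals.
Myh6-201: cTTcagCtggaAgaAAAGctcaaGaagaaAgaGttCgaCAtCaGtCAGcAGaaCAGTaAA
Myh7-201: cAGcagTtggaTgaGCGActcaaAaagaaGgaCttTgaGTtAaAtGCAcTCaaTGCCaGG
How the authors' counting assigned fragments that fit both genes is not given in the sources used here, and values of both heavy chains carry that uncertainty.

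Myh6, the alpha heavy chain, fell by 1.15 on the log2 scale in LPS hearts against Control hearts, Mylk3 fell by 1.0 and Myl2 by 0.91. Myl3 fell by 0.47, and none of the 7 genes rose. In LPS+XJDHT hearts Myh6, Myl2 and Myl3 were likewise below Control, and no gene of the set passed the test between LPS+XJDHT and LPS hearts. The differences are given for each gene in turn, as log2 fold changes of FPKM with a pseudocount of 1, from limma with Benjamini-Hochberg adjustment over all genes tested and a threshold of 0.05.

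**Figure D1:**
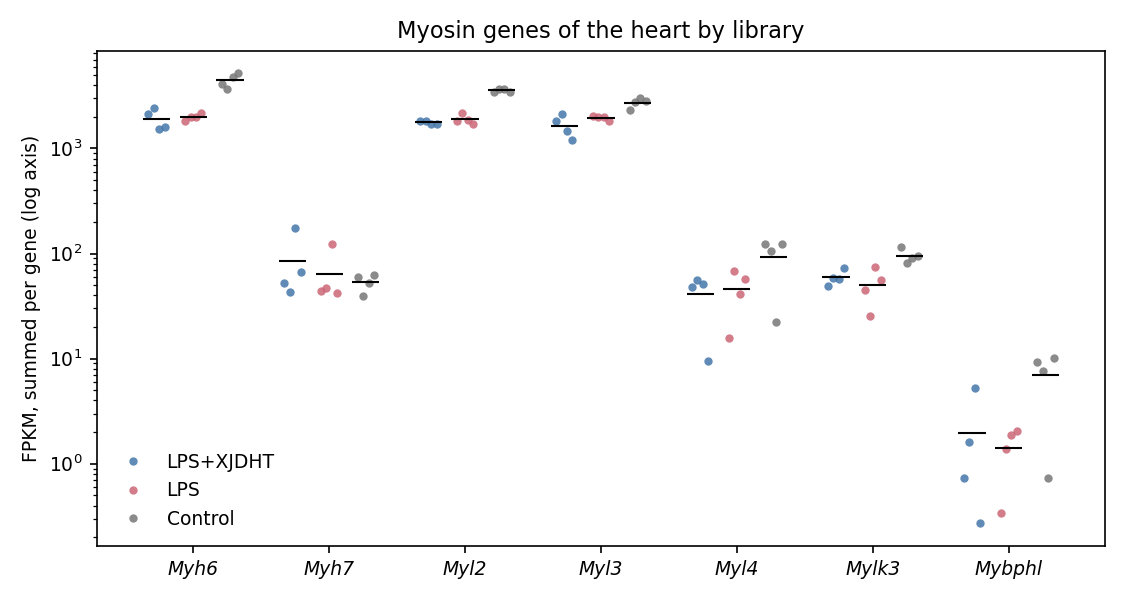
FPKM summed per gene on a log axis for the 7 genes in each of the 12 libraries, with LPS+XJDHT left, LPS in the middle and Control right; points are mice and black bars are means. The 4 Control points of Myh6, Myl2, Myl3 and Mylk3 lie above all LPS points, while those of Myh7 overlap with both other groups. LPS and Control hearts did not overlap for 37.5% of all genes tested.

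Of the 7 genes, 4 fell and 0 rose in LPS hearts against Control hearts, while over all genes tested 12.1% fell and 26.6% rose. Their median log2 fold change was -0.94, against 0.16 over all 11500 genes. LPS and Control hearts did not overlap for the 4 that fell, and for 37.5% of all genes tested. With each library rescaled by its median ratio to the others, 2133 genes rose and 2134 fell, against 3064 and 1386 as deposited, and the median over all genes was 0.00. That rescaling lowered the change of each of the 7 genes: Myh6 was then at -1.35, Myl2 at -1.11, Myl3 at -0.67 and Mylk3 at -1.20, and all 4 still passed.

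Myh6 stood at 1812, 2002, 1989 and 2159 FPKM in LPS hearts and at 4123, 3664, 4809 and 5186 FPKM in Control hearts. Every Control heart lay far above every LPS heart. The mean was 1990.4 ± 142 FPKM in LPS and 4446 ± 682 FPKM in Control hearts (SD, n = 4 each), a log2 fold change of -1.15 (SE 0.15, limma adjusted p = 0.00015), or a fold of 0.451 with a 95% interval of 0.358 to 0.568. These values rest on 532530 to 1894459 fragments per library.

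Myh7, the beta heavy chain, was measured at 43.6, 46.9, 124 and 42.1 FPKM in LPS hearts and at 60.2, 39.1, 53.0 and 62.9 FPKM in Control hearts. LPS replicate 3 stood alone, and the other 3 LPS hearts lay within the Control range. The log2 fold change was 0.11 (SE 0.43, limma adjusted p = 0.86) with a 95% interval of -0.83 to 1.06, so the interval included changes of up to 0.83 down and 1.06 up. Its sign turned without LPS replicate 3 (-0.26), under median-ratio scaling (-0.09) and without Control replicate 2 (-0.03), and its highest value was 0.35, with limma-voom on recovered fragments.

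The beta share, Myh7 as a percentage of the summed FPKM of Myh6 and Myh7, was computed in each heart. The share was 2.43, 1.74, 10.2 and 4.04% in LPS+XJDHT hearts, 2.35, 2.29, 5.87 and 1.91% in LPS hearts, and 1.44, 1.06, 1.09 and 1.20% in Control hearts. All 8 hearts given LPS lay above all 4 Control hearts, and the alpha chain made up the rest. The LPS minus Control difference was 1.91 percentage points and the LPS+XJDHT minus Control difference was 3.40 points, each at a two-sided exact permutation p = 0.0286, the smallest that 4 against 4 allows. Adjusted over the 6 ratio tests made, both were at 0.0857 and did not pass. Without LPS replicate 3 the LPS difference was 0.988 points, and without LPS+XJDHT replicate 3 the LPS+XJDHT difference was 1.54 points; 3 hearts against 4 allow no p below 0.0571.

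The share was a ratio in which the falling partner was Myh6 while Myh7 itself did not pass the test. LPS+XJDHT and LPS hearts differed in it by 1.49 points (exact permutation p = 0.629), and without LPS+XJDHT replicate 3 by -0.368 points. With the main coding transcripts alone, the differences to Control were 2.85 points in LPS and 4.70 points in LPS+XJDHT hearts, at the same exact permutation p = 0.0286.

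**Figure D2:**
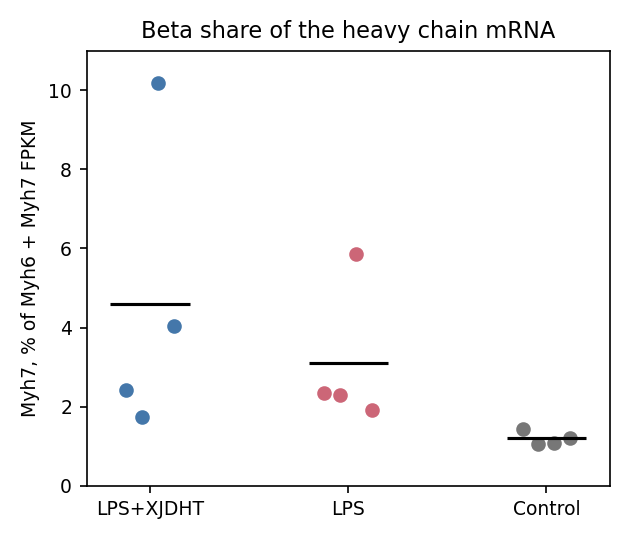
Myh7 as a percentage of the summed FPKM of Myh6 and Myh7 in each heart, with LPS+XJDHT left, LPS in the middle and Control right; points are mice in replicate order and bars are means. Control hearts sit between 1.06 and 1.44%, and 1 heart in each of the other groups, replicate 3, stands apart at 10.2 and 5.87%.

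The third heavy chain, Myh7b, is an ancient relative of Myh7 that also hosts a microRNA, and no transcript of it was listed in all 12 files, so it was not among the genes tested. Its coding transcript Myh7b-201 was listed for LPS+XJDHT hearts alone, at 0.719, 0.828, 0.378 and 0.615 FPKM. For the other groups a fragment with a retained intron, Myh7b-203, was listed, at 0.236, 0.135, 0.115 and 0.280 FPKM in LPS hearts and 0.433, 1.17, 3.55 and 2.15 FPKM in Control hearts. All LPS hearts lay below all Control hearts, a difference that was not tested. Over all transcripts tested, 28.4% likewise showed no overlap between these groups. Myh7b-201 and Myh7b-203 are different transcripts, so no difference was drawn between LPS+XJDHT and the other groups.

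The heavy chain genes were also read by single transcript. Myh6-205 and Myh6-201 are both complete Myh6 mRNAs with an identical coding sequence of 5814 bases; they share 6008 exonic bases, and 105 bases belong to Myh6-201 alone, so their split rests on little sequence. Myh6-205 was at 793, 813, 542 and 781 FPKM in LPS hearts and at 2208, 1699.9, 2404 and 2693 FPKM in Control hearts. It fell by 1.62 on the log2 scale (SE 0.24, limma adjusted p = 0.00072), and made up 37.4% of the gene's FPKM in LPS+XJDHT, 37.0% in LPS and 50.5% in Control hearts.

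Myh6-201 was at 518, 577, 836 and 760.2 FPKM in LPS hearts and at 826, 944, 1104 and 1252 FPKM in Control hearts. The groups overlapped here, unlike for Myh6-205. The log2 fold change was -0.63 (SE 0.20, limma adjusted p = 0.037), and without Control replicate 2, 3 or 4 or LPS replicate 1 or 2 it no longer passed, with adjusted p of 0.056 to 0.099. Its share of the gene was 35.5% in LPS+XJDHT, 33.7% in LPS and 23.2% in Control hearts.

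Myh6-207, a 542-base coding fragment at the end of the gene, fell by 0.99 (SE 0.16, limma adjusted p = 0.0011). The short Myh6-203, which starts near the beginning of the gene, was at 3.49, 1.71, 0.942 and 1.58 FPKM in LPS hearts and 0.323, 0.421, 0.313 and 0.692 FPKM in Control hearts. The groups did not overlap, as for 28.4% of all transcripts tested. Its log2 fold change of 0.97 (SE 0.33, limma adjusted p = 0.055) missed the threshold. It passed without LPS replicate 3 (1.14, adjusted p = 0.035), without LPS+XJDHT replicate 1 or 4, and with a pseudocount of 0.1.

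Of the Myh7 transcripts, 1 of 3 passed the test in LPS hearts, and it was not the coding one. Of all transcripts tested 8.26% fell and 17.3% rose. Myh7-201, which encodes the beta chain, was at 40.1, 40.9, 121 and 35.1 FPKM in LPS hearts and 37.6, 31.0, 36.4 and 53.5 FPKM in Control hearts, with a log2 fold change of 0.40 (SE 0.47, limma adjusted p = 0.59) that was -0.0066 without LPS replicate 3. Myh7-202, with a retained intron, was at 0.947, 1.35, 1.72 and 1.64 FPKM in LPS hearts against 3.15, 2.84, 4.38 and 5.80 FPKM in Control hearts and fell by 1.04 (SE 0.24, limma adjusted p = 0.0098). The intervals of these 2 transcripts were -0.64 to 1.44 and -1.57 to -0.50, and the difference between them was not tested.

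Mhrt, a long non-coding RNA that runs antisense to Myh7 and in mice is known to act on chromatin remodelling at the heavy chain locus, fell as well. Mhrt-201 was at 1.38, 1.84, 0.936 and 1.17 FPKM in LPS hearts and at 9.51, 8.75, 3.35 and 4.00 FPKM in Control hearts. The groups did not overlap, as for 28.4% of all transcripts tested (log2 fold change -1.57, SE 0.33, limma adjusted p = 0.0053 over transcripts). It shares 463 exonic bases with Myh7-201 on the opposite strand and none with Myh6-201. The library kit is not stated to keep strand, so without strand reads of Mhrt and of Myh7 in those bases cannot be told apart.

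The ventricular light chains are shown next, with the promoter of Myl3 printed because its window holds the most matches among the genes that fell. It lies at chr9:110763428-110763727 on the plus strand (RefSeq, GRCm38.p6), and capitals mark CATTCC on either strand, GATAA, the core of GATA factor sites, and a CArG box, bound by serum response factor.
Myl3: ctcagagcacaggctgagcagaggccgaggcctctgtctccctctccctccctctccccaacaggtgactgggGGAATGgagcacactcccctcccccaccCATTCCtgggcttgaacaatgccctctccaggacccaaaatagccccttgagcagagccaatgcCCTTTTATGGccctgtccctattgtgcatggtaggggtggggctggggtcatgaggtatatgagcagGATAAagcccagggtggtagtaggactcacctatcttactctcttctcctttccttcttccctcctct
The CArG box is at -85 to -76 and GATAA at -18 to -14, and the 2 CATTCC matches lie at -177 to -172 and -149 to -144. Among all promoters 1.63% hold a CArG box, 25.4% a GATAA and 3.19% a MEF2 box, which was searched too and is not in this window. The listed start of Myl3-201 is 32 bases upstream of the RefSeq one. RefSeq starts of Myl2 and Myl4 lie far from the listed transcripts, so those windows are not printed.

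Myl2, the regulatory light chain of the ventricle, had the smallest standard error of the 7 genes in the fit. It stood at 1839.9, 2155, 1876 and 1710.4 FPKM in LPS hearts and at 3441, 3673, 3689 and 3413 FPKM in Control hearts. The groups were far apart, with a log2 fold change of -0.91 (SE 0.07, limma adjusted p = 3.7e-06) and a fold of 0.532 (95% interval 0.478 to 0.592).

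Each of the 10 Myl2 transcripts tested fell in LPS hearts, with log2 fold changes of -2.34 to -0.65, where 8.26% of all transcripts did. These 10 share their reads, so they are not independent of each other. The most abundant, Myl2-203, averaged 1026 ± 76.1 FPKM in LPS and 1920.1 ± 208 FPKM in Control hearts, and Myl2-201 averaged 716 ± 114 FPKM in LPS and 1209.7 ± 25.9 FPKM in Control hearts (SD, n = 4 each). Both encode a chain of 498 coding bases. Myl2-202 was at 33.3, 42.7, 85.5 and 21.8 FPKM in LPS hearts against 189.9, 178, 180.1 and 312 FPKM in Control hearts, a log2 fold change of -2.34 (SE 0.40, limma adjusted p = 0.0017), and it shares 472 bases with Myl2-201 and has 257 of its own. The scarce Myl2-211 fell by 2.09 (SE 0.17). The call on Myl2-207 was lost without Control replicate 1, 2, 3 or 4 or LPS replicate 2 or 3, with values of -0.67 to -0.49 and adjusted p of up to 0.07.

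Myl3, the ventricular essential light chain, was at 2021, 1996, 1982 and 1819.9 FPKM in LPS hearts and at 2301, 2733, 2986 and 2821 FPKM in Control hearts. All LPS hearts lay below all Control hearts, although the gap to the lowest of them was small. The log2 fold change was -0.47 (SE 0.15, limma adjusted p = 0.026), a fold of 0.724 with a 95% interval of 0.579 to 0.905 that lies above that of Myh6 and overlaps that of Myl2. The call was lost without Control replicate 2 (adjusted p = 0.054), 3 (0.071) or 4 (0.06) and without LPS replicate 4 (0.063), with values of -0.42 to -0.46.

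In Control hearts Myh6 led Myl2 and Myl2 led Myl3 in FPKM, at 4446 ± 682, 3554 ± 148 and 2710.1 ± 292. The ranges of Myh6 and Myl2 just met there, and those of Myl2 and Myl3 did not. The short Myh6-207 made up 25.4% of the Myh6 FPKM in Control hearts but 3.0% of its fragments. The order of Myh6 and Myl2 thus depends on how transcripts are summed. In LPS hearts the 3 genes stood at 1990.4 ± 142, 1895 ± 187 and 1955 ± 91.4 FPKM, with ranges that all overlapped. In LPS+XJDHT hearts they stood at 1918 ± 434, 1767 ± 69.2 and 1649 ± 395 FPKM, again with overlap. Mylk3, Myh7 and Myl4 followed far below, with overlapping ranges in LPS+XJDHT and in LPS hearts; in Control hearts Mylk3 lay above Myh7 and the range of Myl4 spanned both. Mybphl was lowest in each group.

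Mylk3, which encodes the kinase of the regulatory light chain, is transcribed from several starts. Those of the 2 leading transcripts are printed because only 1 of them passed the test, though the difference between them was not tested. The Mylk3-201 window is chr8:85365275-85365574 and the upstream window chr8:85380992-85381291, both on the minus strand (RefSeq, GRCm38.p6), with CATTCC in capitals in the first and GATAA in the second.
Mylk3-201: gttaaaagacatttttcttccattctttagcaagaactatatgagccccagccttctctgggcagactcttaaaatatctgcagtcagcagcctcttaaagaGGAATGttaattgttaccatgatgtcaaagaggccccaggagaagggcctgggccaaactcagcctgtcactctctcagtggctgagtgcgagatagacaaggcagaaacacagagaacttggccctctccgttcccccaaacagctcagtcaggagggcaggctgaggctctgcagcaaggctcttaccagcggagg
Mylk3-203: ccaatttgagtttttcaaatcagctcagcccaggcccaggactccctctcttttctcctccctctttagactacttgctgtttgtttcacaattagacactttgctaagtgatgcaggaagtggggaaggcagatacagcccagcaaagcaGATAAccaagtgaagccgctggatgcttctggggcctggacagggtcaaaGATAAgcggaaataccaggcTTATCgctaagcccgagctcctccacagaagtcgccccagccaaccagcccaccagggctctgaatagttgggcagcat
The listed start of Mylk3-201 coincides with the RefSeq start, and that of Mylk3-203 is 63 bases downstream of its own.

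The gene sum of Mylk3 was 45.0, 25.6, 73.9 and 55.6 FPKM in LPS hearts and 114, 81.8, 90.5 and 94.0 FPKM in Control hearts. The LPS hearts were widely spread but all below the Control hearts, with a log2 fold change of -1.0 (SE 0.26, limma adjusted p = 0.0096) and a fold of 0.50 (95% interval 0.338 to 0.740). Mylk3-201 carried 82.4% of the gene's FPKM in LPS+XJDHT, 88.2% in LPS and 86.7% in Control hearts. It was at 38.7, 25.5, 62.1 and 46.1 FPKM in LPS hearts against 102, 70.5, 77.7 and 80.4 FPKM in Control hearts and fell by 0.98 (SE 0.23, limma adjusted p = 0.01). Mylk3-203, from the upstream start, was at 5.64, 0, 11.1 and 9.20 FPKM in LPS hearts and 11.2, 10.0, 12.5 and 12.5 FPKM in Control hearts. Its -1.22 (SE 0.68, limma adjusted p = 0.22) did not pass. The 95% intervals of Mylk3-201 and Mylk3-203 were -1.49 to -0.47 and -2.72 to 0.27, and they overlap.

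Myl4, the atrial essential light chain, and Mybphl, an atrium-enriched relative of myosin binding protein, split the hearts in another way. Myl4 was at 48.0, 55.6, 51.4 and 9.43 FPKM in LPS+XJDHT hearts, at 15.7, 68.7, 40.8 and 57.0 FPKM in LPS hearts, and at 124, 105, 22.2 and 123 FPKM in Control hearts. Mybphl was at 0.733, 1.62, 5.21 and 0.272 FPKM in LPS+XJDHT hearts, at 0.343, 1.39, 1.89 and 2.06 FPKM in LPS hearts, and at 9.23, 7.55, 0.725 and 10.1 FPKM in Control hearts. In each group 1 heart was lowest for both genes: LPS+XJDHT replicate 4, LPS replicate 1 and Control replicate 3.

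Several other atrial genes, though not all, were lowest in the same 3 hearts. Nppa, the atrial natriuretic peptide gene, was at 172 FPKM in LPS+XJDHT replicate 4, 94.8 FPKM in LPS replicate 1 and 78.3 FPKM in Control replicate 3, while Sln, the atrial calcium pump regulator sarcolipin, was at 1.52 FPKM in LPS+XJDHT replicate 4, 6.47 FPKM in LPS replicate 1 and 2.20 FPKM in Control replicate 3. Of the 13 atrial markers 11 were listed, 0 of them at 0 throughout. Of the 9 that are not myosin genes, 5 were lowest in LPS+XJDHT replicate 4, 6 in LPS replicate 1 and 7 in Control replicate 3, and 4 (Nppa, Sln, Dkk3 and Stard10) in all 3 of these hearts. The sum of the 9 was 199 to 458 FPKM in LPS+XJDHT, 123 to 503 FPKM in LPS and 119.6 to 401 FPKM in Control hearts. That sum was mostly Nppa, at 65.5% to 91.7% of it in each heart. The sum of the others, 27.6 to 63.3 FPKM in LPS+XJDHT, 28.0 to 52.8 FPKM in LPS and 41.3 to 76.7 FPKM in Control hearts, was lowest in the same heart of each group. Of the 11 listed atrial markers 3 fell and 0 rose in LPS hearts against Control hearts, the connexin gene Gja5 and the potassium channel genes Kcna5 and Kcnj3, with log2 fold changes of -1.64 to -0.86, where 12.1% of all genes tested fell. In LPS+XJDHT hearts against Control hearts 4 fell, these 3 and Stard10, where 10.7% of all genes fell. They are named because their counts are small, after their values were seen. How much atrium each piece of heart held is not given, and its part in the values of Myl4 and Mybphl was not tested.

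Neither gene passed with all 12 hearts. For LPS against Control, the log2 fold change of Myl4 was -0.94 (SE 0.69, limma adjusted p = 0.31) and that of Mybphl -1.47 (SE 0.62, limma adjusted p = 0.081). Without Control replicate 3, Mybphl was at -2.10 (adjusted p = 0.0070) in LPS and at -2.02 (adjusted p = 0.0085) in LPS+XJDHT against Control, and Myl4 was at -1.75 (adjusted p = 0.048) in LPS+XJDHT against Control. Without LPS+XJDHT replicate 3, Mybphl was at -1.83 (adjusted p = 0.035) in LPS+XJDHT against Control. The log2 ratio of Myl4 to Myl3 differed by -0.49 between LPS and Control hearts and by -0.45 between LPS+XJDHT and Control hearts (exact permutation p = 0.486 for each), and by 0.04 between LPS+XJDHT and LPS hearts (exact permutation p = 0.914). These ratios rested on single hearts: without Control replicate 3 they were -1.14 in LPS and -1.10 in LPS+XJDHT against Control (exact permutation p = 0.0571 for each, the smallest possible), and with another heart left out they reached -0.03 without LPS replicate 1 and 0.02 without LPS+XJDHT replicate 4.

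**Figure D3:**
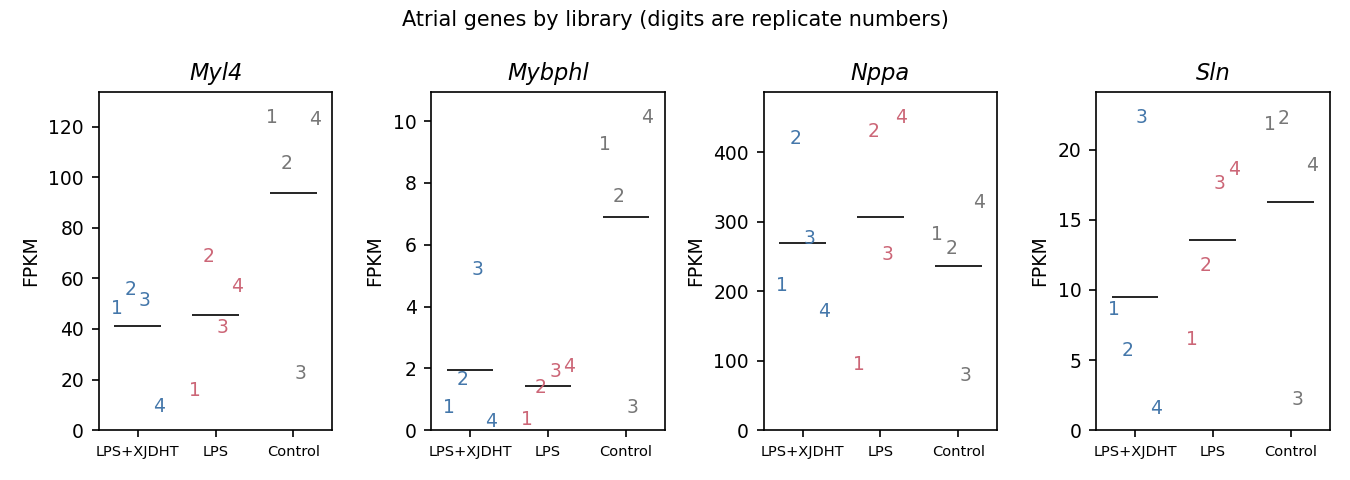
FPKM of Myl4, Mybphl and the atrial genes Nppa and Sln, with LPS+XJDHT left, LPS in the middle and Control right; each digit is 1 mouse by replicate number and bars are means. LPS+XJDHT replicate 4, LPS replicate 1 and Control replicate 3 are the lowest of their group for Myl4, Mybphl and Nppa, and for Sln too.

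Over single transcripts, 18 of the 30 fell and 0 rose in LPS hearts against Control hearts, while 8.26% of all 18635 transcripts fell and 17.3% rose. By kind, 12 of 21 protein coding transcripts, 3 of 6 with a retained intron and 3 of 3 processed transcripts fell. The median of the 30 was -0.91 and that of all transcripts 0.15. The transcripts of 1 gene share their reads, so they are not independent of each other.

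**Figure D4:**
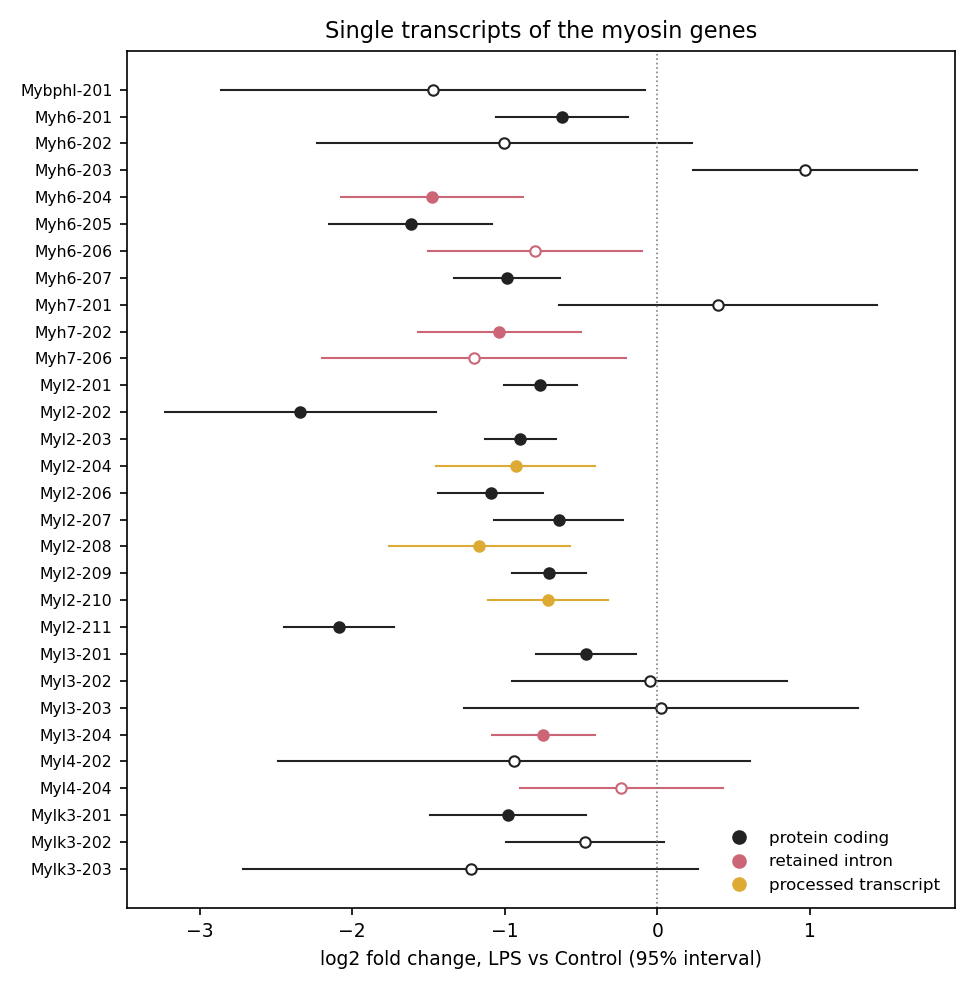
Log2 fold change of FPKM with a pseudocount of 1, LPS against Control, for the 30 transcripts of the 7 genes, with 95% intervals; filled points passed the limma test and colour gives the kind of transcript. All 10 Myl2 transcripts lie between -2.34 and -0.65, and the interval of the coding Myh7-201 includes 0, and its value of 0.40 was -0.0066 without LPS replicate 3.

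LPS+XJDHT hearts were then set against LPS hearts, the comparison that holds the decoction. Of the 7 genes 0 rose and 0 fell, with limma adjusted p of 0.995 or more, and their median log2 fold change was -0.08, against 0.03 over all genes. Over all 11500 genes 0.113% fell and 0% rose, and 552 genes had an unadjusted p below 0.05. Of the 30 transcripts 0 rose and 0 fell, where 0.0859% of all transcripts fell and 0.0107% rose.

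The intervals give the sizes of difference these 8 hearts allow. Myh6 was at 2106, 2442.5, 1536 and 1589 FPKM in LPS+XJDHT hearts, so 1 heart lay above all LPS hearts, 1 among them and 2 below them, and the 95% interval of its log2 fold change was -0.41 to 0.25. Myl2 was at 1826, 1826, 1722 and 1693 FPKM, and its interval of -0.25 to 0.06 was the narrowest of the 7. Myl3 was at 1818, 2108, 1461 and 1211 FPKM, with an interval of -0.60 to 0.05.

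The other 4 genes were less precise. Mylk3 was at 49.3, 57.9, 57.2 and 72.7 FPKM in LPS+XJDHT hearts, inside the LPS range, with an interval of -0.24 to 0.89. Myh7 was at 52.5, 43.2, 174 and 66.9 FPKM, again with replicate 3 apart, and its interval was -0.62 to 1.27. For Myl4 and Mybphl the intervals, -1.72 to 1.28 and -1.27 to 1.44, included changes of more than 1 in both directions.

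**Figure D5:**
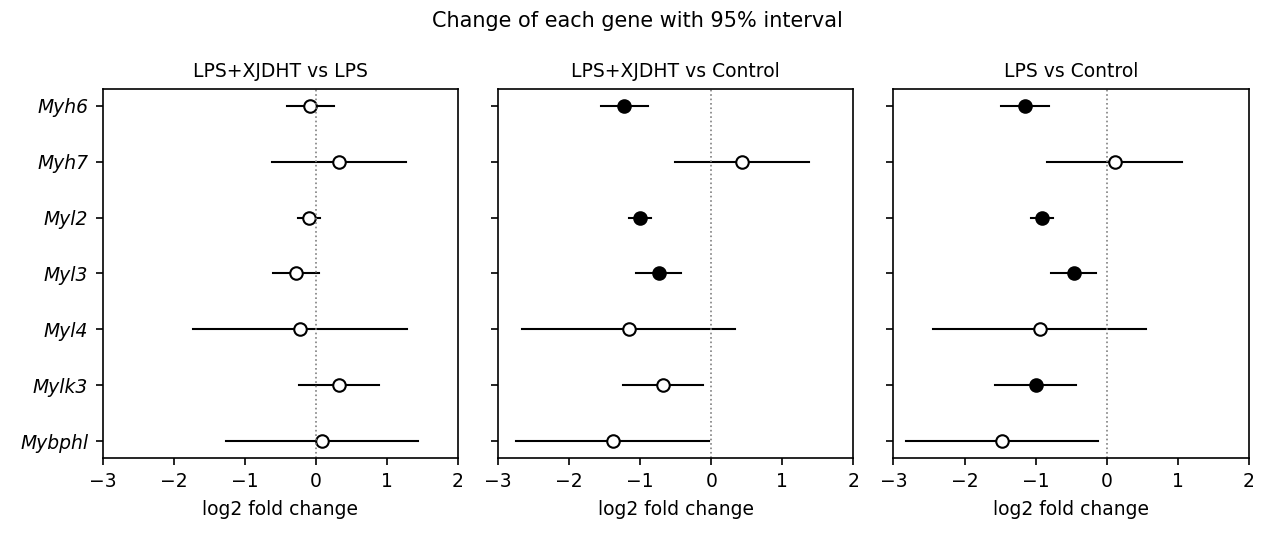
Log2 fold change of FPKM with a pseudocount of 1 for the 7 genes, from left to right LPS+XJDHT against LPS, LPS+XJDHT against Control and LPS against Control; lines are 95% intervals, and filled points passed the limma test. All 7 intervals of LPS+XJDHT against LPS include 0, and Myh6, Myl2 and Myl3 are filled in both comparisons with Control.

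Against Control hearts, which also serve the LPS comparison, 3 of the 7 genes fell and 0 rose in LPS+XJDHT hearts, while 10.7% of all genes fell and 28.5% rose. Under median-ratio scaling 1951 genes rose and 2056 fell, against 3276 and 1234 as deposited. Myh6 averaged 1918 ± 434 FPKM in LPS+XJDHT and 4446 ± 682 FPKM in Control hearts (log2 fold change -1.23, SE 0.15, limma adjusted p = 9.9e-05). Myl2 averaged 1767 ± 69.2 FPKM in LPS+XJDHT and 3554 ± 148 FPKM in Control hearts (-1.01, SE 0.07, limma adjusted p = 1.9e-06), and Myl3 averaged 1649 ± 395 FPKM in LPS+XJDHT and 2710.1 ± 292 FPKM in Control hearts (-0.74, SE 0.15, limma adjusted p = 0.0022; SD, n = 4 each).

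Mylk3 averaged 59.3 ± 9.78 FPKM in LPS+XJDHT and 95.2 ± 13.9 FPKM in Control hearts. The groups did not overlap, as for 42.1% of all genes tested, and the log2 fold change of -0.68 (SE 0.26, limma adjusted p = 0.057) did not pass. It passed in 7 of 22 other settings, among them median-ratio scaling (-0.92, adjusted p = 0.016) and the fits without LPS replicate 2 (adjusted p = 0.0082) or 3 (0.028), which change the shared spread and not the 2 means. The transcript Mylk3-201 did pass there, at -0.75 (SE 0.23, limma adjusted p = 0.035 over transcripts), a call lost in 5 of 14 other settings. Myh7 was at 0.43 (SE 0.43, limma adjusted p = 0.46). Of the 30 transcripts 19 fell and 0 rose, where 7.36% of all transcripts fell and 18.6% rose.

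Other genes of the myosin system were read from lists chosen by textbook role. Of 12 tested genes of other myosin chains and their kinases, 1 rose and 3 fell in LPS hearts against Control hearts (median -0.24), where 26.6% of all genes tested rose and 12.1% fell. Mylk4, a relative of the cardiac kinase that heart muscle expresses, averaged 0.923 ± 0.529 FPKM in LPS and 4.52 ± 1.72 FPKM in Control hearts (-1.51, SE 0.24, limma adjusted p = 0.00058). The smooth muscle heavy chain Myh11 averaged 2.10 ± 0.745 FPKM in LPS and 6.13 ± 2.86 FPKM in Control hearts (-1.15, limma adjusted p = 0.028), and the smooth muscle light chain Myl9 averaged 17.2 ± 6.73 FPKM in LPS and 32.3 ± 4.69 FPKM in Control hearts (-0.95, limma adjusted p = 0.025). Myl12a, a regulatory light chain of non-muscle myosin, was the one that rose, at 604 ± 179 FPKM in LPS and 349 ± 21.3 FPKM in Control hearts (0.75, limma adjusted p = 0.019; SD, n = 4 each). The call on Myl12a was lost under median-ratio scaling (0.54, adjusted p = 0.086), those on Myl9 without Control replicate 2 (-0.91, adjusted p = 0.058) or 4 (-0.89, 0.062), and that on Myh11 without Control replicate 1 or 3 or LPS replicate 2 or 3 (-0.92 to -1.10, adjusted p up to 0.081). Of the 8 smooth muscle markers 3 fell, where 12.1% of all genes did, and their sum was 146 to 304 FPKM in LPS+XJDHT, 116 to 214 FPKM in LPS and 155 to 217 FPKM in Control hearts.

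Of 16 tested partners of the thick filament, chaperones, phosphatase subunits and ring finger proteins of the sarcomere, 4 rose and 3 fell (median -0.02), shares near the 26.6% and 12.1% of all genes. Unc45b, the chaperone that folds the myosin head in striated muscle, fell to 27.1 ± 4.36 FPKM in LPS hearts, against 46.6 ± 4.28 FPKM in Control hearts (-0.77, limma adjusted p = 0.00060). The muscle ring finger proteins split: Trim55 averaged 3.76 ± 1.66 FPKM in LPS and 17.0 ± 6.37 FPKM in Control hearts (-1.92, limma adjusted p = 0.00028), and Trim54 averaged 149 ± 8.54 FPKM in LPS and 92.4 ± 3.87 FPKM in Control hearts (0.68, limma adjusted p = 4.8e-05). Ppp1cb, the catalytic subunit of myosin phosphatase, rose to 88.8 ± 8.25 FPKM in LPS hearts, against 63.4 ± 2.23 FPKM in Control hearts (0.47, limma adjusted p = 0.00045; SD, n = 4 each). The kinase and the phosphatase of the regulatory light chain, Mylk3 and Ppp1cb, moved in opposite directions at the mRNA level.

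Of 21 tested regulators of myosin genes 2 rose and 3 fell (median 0.01), beside 26.6% and 12.1% of all genes. Mef2d, a MEF2 transcription factor, rose to 8.35 ± 1.70 FPKM in LPS hearts, against 2.77 ± 1.21 FPKM in Control hearts (1.34, limma adjusted p = 0.00042). Thra, the thyroid hormone receptor alpha, whose ligand activates Myh6 in rodents, fell to 13.3 ± 2.52 FPKM in LPS hearts, against 19.1 ± 1.04 FPKM in Control hearts (-0.50, limma adjusted p = 0.012). Tbx20, a cardiac T-box factor, fell to 5.98 ± 2.65 FPKM in LPS hearts, against 12.6 ± 1.94 FPKM in Control hearts (-1.01, limma adjusted p = 0.0043; SD, n = 4 each), and Mhrt was the third.

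In LPS+XJDHT against LPS hearts, 0 of the genes of these 3 lists rose or fell. In LPS+XJDHT against Control hearts 1 of 12 other myosin genes fell, 3 of 16 partners rose and 5 fell, and 5 of 21 regulators rose and 2 fell, where 28.5% of all genes rose and 10.7% fell. Mylk4 was at 0.715 ± 0.179 FPKM in LPS+XJDHT hearts (-1.64 against Control, limma adjusted p = 0.00034), Unc45b at 28.5 ± 2.99 FPKM (-0.69, limma adjusted p = 0.0012) and Mef2d at 7.21 ± 1.17 FPKM (1.16, limma adjusted p = 0.0011; SD, n = 4). Thra passed there at -0.40 (limma adjusted p = 0.037), a call lost without Control replicate 1, 2, 3 or 4 without LPS+XJDHT replicate 2 or 4, or with limma-voom on recovered fragments (adjusted p of 0.054 to 0.1).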

How the data were processed

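RNA of 12 mouse hearts was measured in 3 groups of 4 named by the labels. Nothing in the labels pairs mice across groups; that the mice were bred or housed separately is not stated, so p-values measure the spread between these hearts. The authors deposited 1 normalized value per transcript, scaled by length and library size before deposit and read here as FPKM, since the headers name no unit and value times annotated length came out as whole fragments within 0.1 for 98.5% to 98.7% of values. Per the submitters' processing notes, the build was mm10 and limma was used for an unstated step; which aligner or quantifier was used is not given here. The LPS+XJDHT files list 35802 transcripts, and those of LPS and Control 36293.

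FPKM of annotated transcripts (GENCODE M21, GRCm38) in all 12 files, 24712 in number, were summed to 12855 genes. Genes, and likewise transcripts, that reached 1 FPKM in 4 or more libraries were fitted as log2(FPKM + 1), a scale that understates changes of low genes, with limma 3.58.1 in R 4.3.3 (1 mean per group, intensity trend), two-sided with Benjamini-Hochberg adjustment over all genes or all transcripts. Ratios were compared by exact permutation with SciPy 1.17.1. The fit was checked on simulated data. Promoters came from a RefSeq table and were searched for a TATA box, an M-CAT core, a GATA core, a CArG box and a MEF2 box, on both strands.

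The genes of the set, the lists and the tests were chosen with earlier results of these data known. Named besides the set are from each list up to 4 genes that had the lowest adjusted p in LPS against Control and the 5 genes most like Myh6. Some atrial markers are named too, outside this rule. Alternatives were other pseudocounts and filters, median-ratio scaling, removal of mitochondrial and haemoglobin genes, the compared groups alone, quality weights, limma-voom on recovered fragments, all listed transcripts, and each library left out. The beta share with main coding transcripts, with recovered fragments and without both replicates 3 was added after seeing the data. Some genes were not analysed here, and an atrial ratio that needs one of them was not run.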

Additional observations from a re-analysis of the deposited data

Results flagged for a closer look

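Within each group of 4 hearts, 16 of 114 sets of values held 1 heart far from the other 3. The gap to the nearest was above Dixon's limit for 4 values at the 95% level. For independent, normally spread values chance gives about 1 in 20. These sets share values, as a gene does with its transcripts, so their number cannot be set against that rate. Myh7 in LPS hearts was at 124 FPKM in replicate 3 and at 42.1 to 46.9 FPKM in the other 3, its coding transcript Myh7-201 at 121 FPKM against 35.1 to 40.9 FPKM, and the beta share at 5.87% against 1.91 to 2.35%. In the same LPS replicate 3, Myh6-205 was lowest at 542 FPKM, with 781 to 813 FPKM in the others.

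The atrial light chain Myl4 was at 9.43 FPKM in LPS+XJDHT replicate 4 and its transcript Myl4-202 at 9.13 FPKM, with 48.0 to 55.6 and 47.4 to 54.3 FPKM in the other 3 hearts. The log2 ratio of Myl4 to Myl3 was -7.07 in Control replicate 3 and -4.70 to -4.22 in the other Control hearts.

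The remaining values belong to single transcripts. In LPS+XJDHT hearts, Myh6-204 was at 5.57 FPKM in replicate 2 and Myl3-202 at 5.05 FPKM in replicate 4. In LPS hearts, Myh6-207 was at 478 FPKM and Myl2-208 at 2.38 FPKM in replicate 1, Myl2-206 at 44.4 FPKM in replicate 2, and Myl3-203 at 5.87 FPKM and Myl4-204 at 1.71 FPKM in replicate 4. In Control hearts, Myh6-202 was at 18.7 FPKM in replicate 3 and Myl2-202 at 312 FPKM in replicate 4.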

How the results depend on the processing

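Of 462 values for the 7 genes under 22 alternatives, 447 kept their call, 4 lost it and 11 gained it, and none changed sign while past the threshold; for their transcripts and Mhrt-201 the counts were 1237, 43 and 10 of 1290. Myh6 and Myl2 against Control in LPS and in LPS+XJDHT, Mylk3 in LPS and Myl3 in LPS+XJDHT held in all 22. For 17 other named genes, 1085 of 1112 values kept their call, 14 lost it and 13 gained it. The atrial markers outside the set were not among them, so their calls were not checked in this way. Limma-voom on recovered fragments called 3033 genes higher and 1304 lower in LPS against Control.

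For genes, median-ratio scaling gave 2134 that fell in LPS against Control, and 1951 that rose and 2056 that fell in LPS+XJDHT against Control; the scaling moved the median of all genes to 0.00 in both, and other causes were not tested. In LPS+XJDHT against LPS, 0 genes rose; a pseudocount of 0.1 gave 1, no filter 2, quality weights 3 and all listed transcripts 6, and leaving out 1 library gave 0 to 2. There 13 genes fell; no filter gave 41, a limit of 5 FPKM gave 1, and leaving out 1 library gave 3 to 15. For transcripts in that comparison, 2 rose (1 with a pseudocount of 0.1, and 0 to 8 with 1 library left out) and 16 fell (10 with a pseudocount of 0.1, 39 with no filter, and 2 to 19 with 1 library left out). The cause was not tested.

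With 1 library left out, the beta share differed from Control by 0.988 to 2.31 points in LPS and by 1.54 to 4.36 points in LPS+XJDHT. With 3 hearts against 4 no p under 0.0571 is possible, so those fits cannot pass. Mybphl rested on as few as 27 fragments in a library, which limits its precision, and Myh6 on at least 532530. No paired analysis was possible because the mouse numbers in the labels are not shared between groups, and the replicate numbers used here follow the order of the samples and tie no mice together.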

Other observations

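Outside the myosin genes, the 5 genes most like Myh6 across the 12 hearts were sought among 5697 tested genes with a mean of at least 5 FPKM, by the root mean square difference of log2(FPKM + 1) after each gene was centred on its own mean. They were Srl at 0.145, which encodes the sarcoplasmic reticulum protein sarcalumenin, Tmod1 at 0.168, which encodes a cap of actin filaments, Itgb1bp2 at 0.180, which encodes the muscle protein melusin, Tmem65 at 0.193, a mitochondrial membrane protein gene, and Egln1 at 0.196, which encodes an oxygen-sensing prolyl hydroxylase. Srl averaged 49.6 ± 7.03 FPKM in LPS+XJDHT, 51.4 ± 9.50 FPKM in LPS and 113 ± 15.8 FPKM in Control hearts (SD, n = 4 each). Tmod1 averaged 37.8 ± 1.11 FPKM in LPS+XJDHT, 38.2 ± 4.25 FPKM in LPS and 87.0 ± 9.50 FPKM in Control hearts. Likeness says nothing of shared function or control, and as these genes were picked for their pattern, no test is given.

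Within the myosin genes, Myl2 was closest to Myh6 at 0.235, followed by Myl3 at 0.323 and Mylk3 at 0.478. Mybphl was at 0.910, Myl4 at 0.922 and Myh7 at 0.992, the largest distances within the set in these 12 hearts. The distance also grows with the spread between hearts of 1 group. Standard errors of these 3 genes in the fit, 0.62, 0.69 and 0.43, were the largest of the 7. Their log2 fold changes in LPS against Control hearts were -1.47, -0.94 and 0.11. How much of each distance is spread was not tested.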
